A study of Homo sapiens with 12 samples.

Results

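The genes described here encode the DNA replication and S phase machinery. They are known components of replication, listed by name with earlier results of these data known, and comprise 51 of the 34599 gene names on the array. Every probe carrying one of these names was followed. Of their 75 probes, 70 were detected at p under 0.05 in at least 2 of 12 arrays and were tested, and these represented 50 genes, since the single probe of CLSPN was detected in 1 array. MIA PaCa-2 and Capan-1, 2 lines derived from human pancreatic adenocarcinomas, carried a doxycycline-inducible shCtrl, sh1209 or sh1319 construct. Both FAK hairpins target PTK2, which encodes focal adhesion kinase. All 6 groups, controls included, received 50 ng/ml doxycycline for 96 hours, with puromycin at 3.5 ug/ml in MIA PaCa-2, against 1.5 ug/ml in Capan-1. Each group was represented by 2 arrays, 12 in all, and the Capan-1 label shFAK1319 was read as sh1319. Whether both arrays of a group stem from independent cultures is not stated, and the p-values measure only the spread between these arrays, which may be technical.

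Replication starts at origins that are licensed in G1, when CDC6 and CDT1 load the MCM2 to MCM7 helicase onto DNA and geminin (GMNN) later prevents a repeat. MCM10, CDC45 and the GINS complex then activate the helicase, primase and DNA polymerase alpha lay down primers, the RFC complex loads the PCNA clamp, and polymerases delta and epsilon extend the strands. E2F transcription factors switch on many of these genes at the G1 to S transition, and their RNA is low in cells that have left the cycle. In RNA from whole cultures, fewer cells in S phase and less RNA per cell cannot be told apart.

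The promoter of a gene is shown where members with the largest changes could be compared by E2F and CCAAT motifs, the elements best known from S phase promoters. RefSeq promoter windows of GRCh38.p14, 250 bases before to 50 bases after the gene start, were matched by symbol for 42 of the 51 genes. MCM4, MCM5, GINS4, RPA2, RPA3, POLD3, CCNE2, DSCC1 and E2F8 were not matched. An E2F core (on either strand the letters TTCCCGC, or with other inner letters as TTGGCGC, or else as the form TTCGCGC, or finally as the form TTGCCGC) was found in at least 1 window of 36 of the 42 genes, and in 68.4% of their 57 windows against 13.0% of all 35116 windows. The CCAAT box (CCAAT, either strand) was found in 56.1% of the 57 windows against 34.6% of all. Among windows of the other replication genes described below the E2F core was in 47.6% and the CCAAT box in 49.2%, and among those of mitosis genes they were in 27.3% and 77.3%, so the CCAAT box was no more frequent in the members than in mitosis genes. These matches describe the letters and are not evidence of factor binding. The E2F core was present in 16 of 19 matched genes that were lower with the FAK hairpins in the combined comparison described below and in 19 of 22 tested genes that were not. The 250 bases before the gene start are printed 5′ to 3′ on the gene's strand, with E2F cores and CCAAT boxes in capitals. GMNN (chr6:24775163-24775412, plus strand) and TYMS (chr18:657403-657652, plus strand) fell most with sh1319 in MIA PaCa-2. PRIM1 (chr12:56752324-56752573, minus strand) and RFC3 (chr13:33817899-33818148, plus strand) fell in both cell lines, MCM10 (chr10:13161308-13161557, plus strand) fell in both without an E2F core in the 250 bases shown, and GINS3 (chr16:58392221-58392470, plus strand) rose with sh1209.

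GMNN: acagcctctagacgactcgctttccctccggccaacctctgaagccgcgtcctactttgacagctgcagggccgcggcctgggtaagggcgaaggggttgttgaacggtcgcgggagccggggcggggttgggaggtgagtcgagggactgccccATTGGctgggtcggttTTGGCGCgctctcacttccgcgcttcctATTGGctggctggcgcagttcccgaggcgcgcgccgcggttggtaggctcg

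TYMS: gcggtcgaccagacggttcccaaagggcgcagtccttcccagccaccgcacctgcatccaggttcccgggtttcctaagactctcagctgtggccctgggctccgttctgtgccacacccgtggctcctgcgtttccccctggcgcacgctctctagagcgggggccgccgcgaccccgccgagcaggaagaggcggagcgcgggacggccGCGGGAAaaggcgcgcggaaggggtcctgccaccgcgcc

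PRIM1: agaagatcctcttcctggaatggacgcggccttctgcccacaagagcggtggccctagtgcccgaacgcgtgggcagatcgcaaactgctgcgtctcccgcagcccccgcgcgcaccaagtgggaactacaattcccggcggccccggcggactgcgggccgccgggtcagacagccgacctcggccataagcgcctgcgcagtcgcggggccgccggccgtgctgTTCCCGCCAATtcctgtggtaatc

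RFC3: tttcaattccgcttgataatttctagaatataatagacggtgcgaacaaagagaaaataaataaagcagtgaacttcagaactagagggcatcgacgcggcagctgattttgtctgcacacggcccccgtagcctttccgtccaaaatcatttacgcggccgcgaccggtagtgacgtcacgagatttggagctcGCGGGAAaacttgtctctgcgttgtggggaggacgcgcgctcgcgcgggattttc

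MCM10: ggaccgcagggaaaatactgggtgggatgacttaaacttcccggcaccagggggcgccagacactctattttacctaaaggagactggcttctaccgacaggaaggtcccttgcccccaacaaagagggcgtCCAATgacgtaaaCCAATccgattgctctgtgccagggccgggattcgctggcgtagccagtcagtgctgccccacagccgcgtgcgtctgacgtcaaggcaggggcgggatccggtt

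GINS3: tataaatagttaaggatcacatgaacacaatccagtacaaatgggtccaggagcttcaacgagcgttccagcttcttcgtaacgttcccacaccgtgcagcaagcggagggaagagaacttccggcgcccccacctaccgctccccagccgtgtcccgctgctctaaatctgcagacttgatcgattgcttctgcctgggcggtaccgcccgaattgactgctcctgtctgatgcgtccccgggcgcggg

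GMNN has more than 1 window, and the one shown is not the first by chromosome position, as it is for the other genes shown. In this GMNN window the core lies between 2 CCAAT boxes on the opposite strand. In PRIM1 the core and the CCAAT box overlap by 1 base, so the capitals form 1 run. No capital appears for GINS3, whose E2F core lies after the gene start.

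The knockdown and the cell lines were checked on the same arrays. PTK2 probe 450253 fell from 9.45 and 9.46 with shCtrl to 7.28 and 7.14 with sh1209 and 6.92 and 7.03 with sh1319 in MIA PaCa-2, on the normalized log2 intensity scale used for every value below. In Capan-1 it fell from 10.35 and 10.17 to 9.66 and 9.63 and to 8.48 and 8.49, so that the knockdown with sh1209 was shallow there. PTK2 has a second tested probe, 2680750, whose values are not given here. The PTK2 means given below are also of probe 450253. CDH1, EPCAM and KRT7 were strong in Capan-1 and at or near background in MIA PaCa-2, where VIM was instead at 13.21 with shCtrl against 5.66 in Capan-1. These are only part of the epithelial and mesenchymal-type markers listed for the check. KRT8, KRT18, KRT19, MUC1, ZEB1 and FN1 were listed too, and their values are not given here. None of 8 marker genes of leukocytes, fibroblasts and endothelium had a group mean above 5.34. Median array intensity ranged from 87.7 to 97, and 16259 to 19814 probes were detected on an array.

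With sh1319 in MIA PaCa-2, replication genes fell broadly. Of the 70 member probes 41 were lower than with shCtrl and 0 were higher (limma, adjusted p under 0.05), where 12.1% of all 24207 tested probes were lower and 12.2% higher. Counted with the brightest probe of each gene, 32 of 50 genes fell. The median change of the 70 probes was -0.46, against -0.01 over all tested probes. Each of the 12 arrays was left out in turn, which gave 28 to 43 lower probes, and the count was 28 without shCtrl replicate 1 or without sh1319 replicate 1 of MIA PaCa-2. When arrays were scaled to their medians and not quantile-normalized, 20 of the 41 remained lower, and 5.30% of all probes were then lower.

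With sh1319 in Capan-1, 20 member probes were lower than with shCtrl and 0 were higher, where 6.77% of all tested probes were lower and 6.95% higher. These were 16 of 50 genes, and the median of the probes was -0.24. This count was the least stable of the 4 pairs. It was 9 without shCtrl replicate 1, 10 without shCtrl replicate 2, 8 without sh1319 replicate 1 and 13 without sh1319 replicate 2. With median scaling the median over all probes moved to 0.11, and 2 of the 20 remained lower, GMNN and the second probe of RFC3, where 1.38% of all probes were lower. No array was shared between the cell lines, and 13 genes fell with sh1319 in both, 40.6% of the 32 in MIA PaCa-2, against 81.2% of the 16 in Capan-1. By probe, 16 members were lower in both, 39.0% of the 41 and 80.0% of the 20, where over all tested probes 688 were, 23.5% of those lower in MIA PaCa-2 and 42.0% of those lower in Capan-1. The 13 genes were GMNN, MCM6, MCM10, GINS4, RFC3, RFC5, DSCC1, POLA1, POLA2, PRIM1, RRM2, TYMS and CCNE2.

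The response to sh1209 went in both directions. In MIA PaCa-2, 13 member probes were lower and 6 were higher than with shCtrl, where 8.99% of all tested probes were lower and 9.05% higher, and by gene 10 fell and 6 rose. The rises were in GINS3, UHRF1, MCM2, POLD1, MCM5 and CDT1. In Capan-1, 18 probes were lower and 2 were higher, where 8.69% of all were lower and 8.14% higher, and by gene 14 fell and 2 rose, MCM2 and GINS3. The medians were -0.13 in MIA PaCa-2, against -0.16 in Capan-1. With median scaling 7 of the 13 and 5 of the 18 remained lower, 4 of the 6 and both of the 2 remained higher (the 5 in Capan-1 were both probes of RFC3, both of PRIM1 and POLE2), and the median in Capan-1 turned to 0.06 against 0.09 over all probes. Without shCtrl replicate 1 the count in MIA PaCa-2 was 8, and without sh1209 replicate 2 that in Capan-1 was 11. The genes that fell with sh1209 in both cell lines were CCNE2, DUT, E2F2, GINS4, MCM10, POLE2 and PRIM1, which are 7 genes, 70.0% of the 10 and 50.0% of the 14. By probe, 9 members were lower in both, 69.2% of the 13 and 50.0% of the 18, where over all tested probes 485 were, 22.3% and 23.1%. Here too member probes were lower more often in each line alone, 18.6% and 25.7%, where 8.99% and 8.69% of all were. The overlap shares therefore do not show closer agreement among members. The comparisons of sh1209 and sh1319 within a cell line share the shCtrl arrays, so their values are set side by side below and not counted together.

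**Figure D1:**
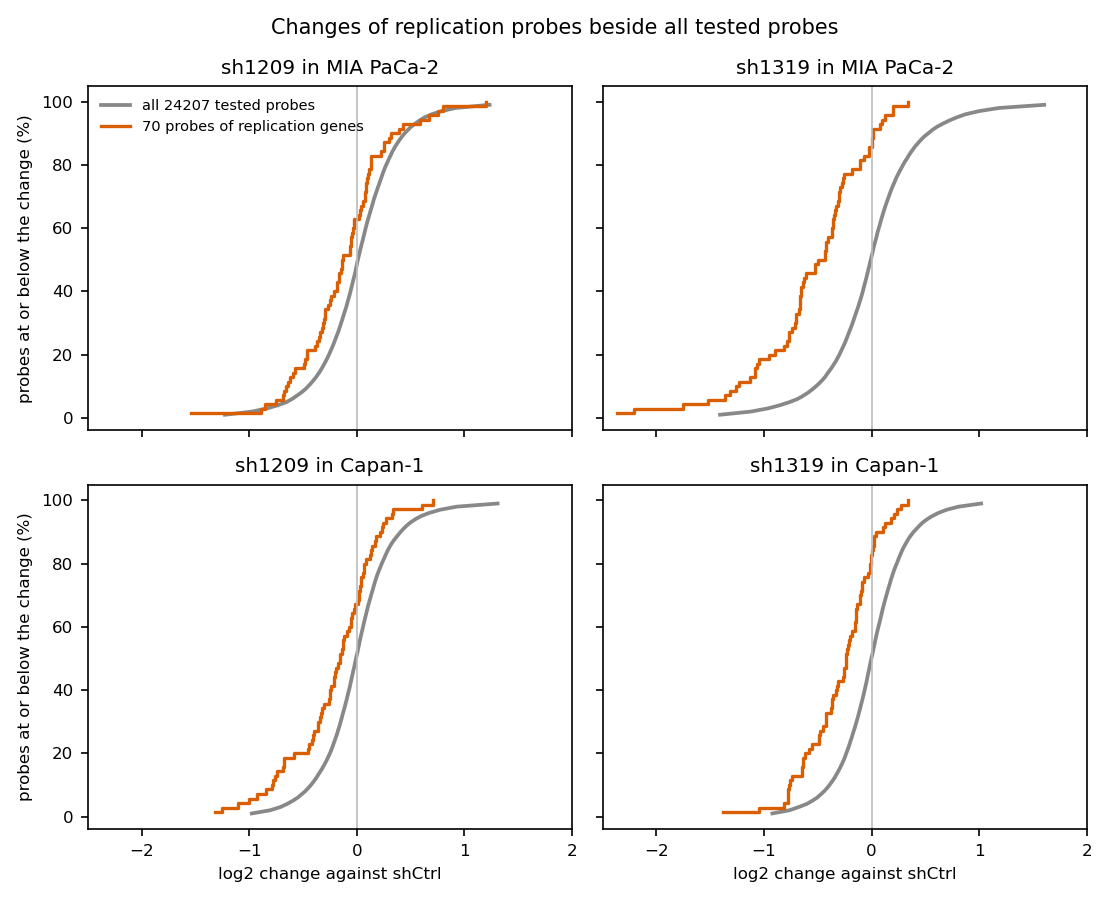
Cumulative share of probes (percent, vertical axis) at or below a given log2 change against shCtrl (horizontal axis) for the 70 member probes (orange) and all 24207 tested probes (grey, 1st to 99th percentile), in 1 panel for each hairpin and cell line. The orange curve lies furthest to the left of the grey one for sh1319 in MIA PaCa-2, where the medians are -0.46 and -0.01, and least for sh1209 in MIA PaCa-2, where they are -0.13 and 0.01.

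**Figure D2:**
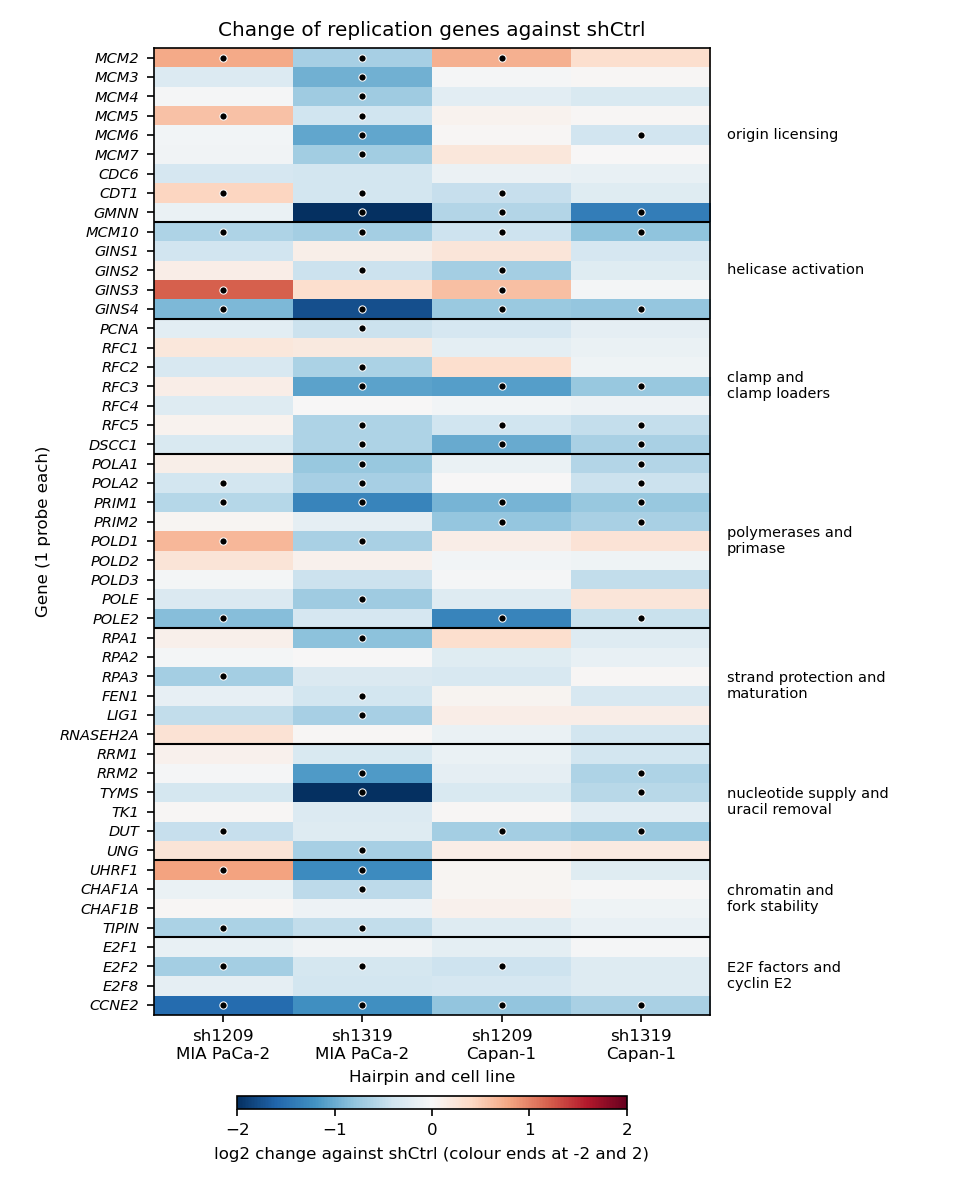
Log2 change against shCtrl (colour, blue lower and red higher) of the 50 tested genes, each by its brightest probe, with genes in rows grouped by role and the 4 hairpin and cell line pairs in columns. Black points mark changes with an adjusted p under 0.05 (limma), which in MIA PaCa-2 are 10 falls and 6 rises under sh1209 and 32 and 0 under sh1319, and in Capan-1 are 14 and 2 under sh1209 and 16 and 0 under sh1319.

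Among the origin licensing factors, 8 of 9 genes fell with sh1319 in MIA PaCa-2, all but CDC6 (-0.37, limma, adjusted p = 0.24), and 4 of them did so with median scaling (MCM3, MCM6, MCM7 and GMNN). Of all tested probes 12.1% were lower in that pair. With sh1209 in MIA PaCa-2 0 of the 9 genes fell, and 2 fell with each hairpin in Capan-1. Of all tested probes 8.99% were lower with sh1209 in MIA PaCa-2, and 8.69% and 6.77% with sh1209 and sh1319 in Capan-1. GMNN, which binds CDT1 and blocks its loading of the helicase, had the deepest fall of this group in 3 of the 4 pairs. It read 9.54 and 9.41 with shCtrl, 9.33 and 9.36 with sh1209 and 7.20 and 7.33 with sh1319 in MIA PaCa-2, with 8.83 and 8.89, 8.32 and 8.23, and 7.42 and 7.54 in the same order in Capan-1. The sh1319 arrays lay below every other array of their cell line. The log2 change with sh1319 was -2.21 ± 0.11 (SE, n = 2 arrays per group) in MIA PaCa-2, 0.217 times the shCtrl level (limma, adjusted p = 1.2e-07), and -1.38 ± 0.11 in Capan-1 (limma, adjusted p = 3.1e-05). With sh1209 it was -0.13 in MIA PaCa-2, which did not pass, and -0.59 in Capan-1, which did.

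Of the MCM helicase subunits, MCM2 and MCM5 rose with sh1209 and fell with sh1319 in MIA PaCa-2. MCM2 read 7.44 and 7.71 with shCtrl, 8.36 and 8.31 with sh1209 and 6.82 and 7.01 with sh1319 in MIA PaCa-2, with 7.14 and 6.99, 7.73 and 7.83, and 7.31 and 7.51 in Capan-1. With sh1209 it rose by 0.76 ± 0.14 (SE, limma, adjusted p = 0.0024) in MIA PaCa-2 and also in Capan-1 (0.71 ± 0.14, limma, adjusted p = 0.0042), and its sh1319 arrays were the lowest of the 6 in MIA PaCa-2 and between the others in Capan-1. MCM5 followed in MIA PaCa-2, from 7.22 and 7.39 to 7.84 and 7.95 with sh1209 and 6.87 and 6.94 with sh1319, and stayed between 7.28 and 7.46 on all 6 Capan-1 arrays. CDT1, the loading factor that geminin binds, rose by 0.43 with sh1209 in MIA PaCa-2 and fell by 0.46 with the same hairpin in Capan-1. It was the 1 gene called in opposite directions in the 2 cell lines with 1 hairpin. MCM3, MCM4, MCM6 and MCM7 fell only with sh1319 among the pairs, by 0.95, 0.71, 1.05 and 0.70 in MIA PaCa-2, and MCM6 also by 0.38 in Capan-1. With median scaling the fall of MCM2 with sh1319 and all 3 changes of CDT1 did not pass, while both rises of MCM2 did.

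Of the 5 helicase activation genes, MCM10 and GINS4 fell in each pair and GINS3 rose with sh1209. With median scaling 1 of the 5 was lower with each hairpin in MIA PaCa-2. In Capan-1 0 were lower with either hairpin, so no fall there passed. With sh1209, 1 of the 5 was still higher in each cell line. GINS4, a subunit of the 4-membered GINS complex, read 8.13 and 7.87 with shCtrl, 7.15 and 7.05 with sh1209 and 6.18 and 6.31 with sh1319 in MIA PaCa-2, with 6.97 and 6.68, 6.38 and 5.77, and 6.20 and 5.89 in Capan-1. Its shCtrl arrays lay above all FAK hairpin arrays of the same cell line. In MIA PaCa-2 sh1209 changed it by -0.90 (limma, adjusted p = 0.0081), and the change with sh1319 was -1.75 (limma, adjusted p = 5.5e-05), each ± 0.20 (SE). In Capan-1 they were -0.75 and -0.78 (limma, adjusted p = 0.022 for the latter). The Capan-1 call with sh1319 was lost without shCtrl replicate 1 (-0.64) or sh1319 replicate 2 (-0.63), and that with sh1209 in MIA PaCa-2 without shCtrl replicate 1 (-0.76) or sh1209 replicate 2 (-0.84). MCM10, which joins the loaded helicase, read 8.65 and 8.47, 7.94 and 7.94, and 7.90 and 7.88 in MIA PaCa-2, with 7.65 and 7.57, 7.24 and 7.17, and 6.73 and 6.87 in Capan-1, in the order shCtrl, sh1209 and sh1319. Its changes were -0.62 and -0.67 for MIA PaCa-2, and -0.41 and -0.81 for Capan-1 (limma, adjusted p = 0.00086 for the last). GINS3, another subunit of the same complex, ran the other way. It read 6.83 and 6.50 with shCtrl, 7.85 and 7.89 with sh1209 and 7.07 and 6.94 with sh1319 in MIA PaCa-2, a rise of 1.20 ± 0.13 (SE) or 2.30-fold with sh1209 (limma, adjusted p = 5.8e-05). In Capan-1 the values were 7.50 and 7.50, 8.13 and 8.08, and 7.46 and 7.48, a rise of 0.61 with sh1209 (limma, adjusted p = 0.0071) that did not pass without sh1209 replicate 1 (0.58, limma, adjusted p = 0.051). GINS2 fell by 0.43 with sh1319 in MIA PaCa-2 and by 0.68 with sh1209 in Capan-1, and GINS1 was detected in 4 of 12 arrays. Subunits of 1 complex thus moved in different directions with sh1209.

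Among the clamp and clamp loader genes, 5 of 7 fell with sh1319 in MIA PaCa-2, 3 with either hairpin in Capan-1 and 0 with sh1209 in MIA PaCa-2. Of all tested probes 12.1% were lower with sh1319 and 8.99% with sh1209 in MIA PaCa-2. In Capan-1 8.69% were lower with sh1209 and 6.77% with sh1319. For 7 genes, 0 is near the share with sh1209 in MIA PaCa-2. With median scaling 1 of the 7 was lower with sh1319 in MIA PaCa-2, 1 with sh1209 in Capan-1 and 0 in the other pairs. RFC3, a small subunit of the clamp loader, read 8.32 and 8.57 with shCtrl, 8.43 and 8.72 with sh1209 and 7.33 and 7.42 with sh1319 in MIA PaCa-2. In Capan-1 the same probe read 8.65 and 8.38, 7.31 and 7.52, and 7.63 and 7.89. With sh1209 its change was 0.13 in MIA PaCa-2, not past the threshold, while it fell by 1.10 ± 0.16 (SE, limma, adjusted p = 0.00073) in Capan-1. The falls with sh1319 were 1.07 in MIA PaCa-2, against 0.75 in Capan-1 (limma, adjusted p = 0.0092 for the latter), the last of which did not pass without shCtrl replicate 1 (-0.62) or sh1319 replicate 1 (-0.62) of Capan-1. A second RFC3 probe changed by 0.13, -1.52, -1.25 and -1.05 in the pairs as ordered in the heat map, and the other, detected in 6 of 12 arrays, gave -0.59, -0.74, -0.25 and -0.02, the first 2 past the threshold. DSCC1, of an alternative loader that acts in sister chromatid cohesion, fell in Capan-1 by 1.00 with sh1209 (limma, adjusted p = 0.0035), and by 0.64 with sh1319, from 8.50 and 8.76 to 7.64 and 7.61 and to 7.75 and 8.23. With median scaling these changes did not pass (-0.72, limma, adjusted p = 0.054, with sh1209). PCNA, the clamp itself, changed less, by -0.44 with sh1319 in MIA PaCa-2, and did not pass in the other 3 pairs with its brighter probe, while its dimmer probe fell by 0.76 with sh1209 in Capan-1. RFC4 changed by -0.25 to 0.00 across the 4 pairs, none past the threshold.

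The polymerase and primase genes fell in part in every pair, 3, 5, 3 and 5 of 9 in the same order, with 1 rise. Of all tested probes 8.99%, 12.1%, 8.69% and 6.77% were lower. With median scaling 1, 2, 2 and 0 of the 9 genes were lower. PRIM1, the catalytic subunit of primase, read 9.08 and 8.97 with shCtrl, 8.50 and 8.39 with sh1209 and 7.60 and 7.81 with sh1319 in MIA PaCa-2, with 9.69 and 9.65, 8.77 and 8.71, and 8.96 and 8.86 in Capan-1. Every FAK hairpin array lay below the shCtrl arrays of its cell line. The changes were -0.58 and -1.31 in MIA PaCa-2, against -0.93 and -0.76 in Capan-1, each ± 0.12 (SE), with adjusted p-values from limma of 9.6e-06 for the second of these, 0.00029 for the next and 0.0015 for the last. A second PRIM1 probe gave -0.76, -1.37, -0.85 and -0.77. POLE2, the second subunit of polymerase epsilon, had its deeper fall with sh1209 instead. It read 8.88 and 8.92, 8.04 and 8.04, and 8.64 and 8.50 in MIA PaCa-2, with 9.81 and 9.97, 8.54 and 8.60, and 9.46 and 9.42 in Capan-1, so sh1209 was the lowest group in both. It fell with sh1209 by 0.86 (limma, adjusted p = 0.00028) in MIA PaCa-2 and 1.32 (limma, adjusted p = 1.3e-05), to 0.400 times the shCtrl level, in Capan-1. POLA1, the catalytic subunit of polymerase alpha, fell with sh1319 in MIA PaCa-2 (-0.76) and Capan-1 (-0.58). POLD1, the catalytic subunit of polymerase delta, was not detected on the sh1319 arrays of MIA PaCa-2 (4.27 and 4.45), was at 5.20 and 4.83 with shCtrl, at least 1.24-fold higher, and reached 5.76 and 5.61 with sh1209. Such a bound sets the brighter mean against the lowest signal detected on each array.

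Of the 6 strand protection and maturation genes, 3 fell with sh1319 in MIA PaCa-2, against 0 in Capan-1 with either hairpin. Of all tested probes 12.1% were lower in that pair, and 8.69% and 6.77% with sh1209 and sh1319 in Capan-1. For 6 genes, 0 is near the Capan-1 shares. With median scaling 1 of the 6 was lower with sh1319 in MIA PaCa-2. RPA1, the large subunit of the protein that coats single-stranded DNA, fell by 0.81 with sh1319 in MIA PaCa-2, from 9.72 and 9.69 to 8.83 and 8.95, and by 1.08 at its second probe. RPA3, the small subunit, fell instead with sh1209 in MIA PaCa-2, from 11.97 and 11.95 to 11.35 and 11.21 (-0.68, limma, adjusted p = 0.0015), and RPA2 did not pass in any pair (-0.24 to 0.01). LIG1 and FEN1, which join and process Okazaki fragments, fell with sh1319 in MIA PaCa-2 by 0.66 and 0.36.

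The nucleotide supply genes held the largest single fall among the members. TYMS, thymidylate synthase, read 11.38 and 11.38 with shCtrl, 11.03 and 11.03 with sh1209 and 9.00 and 9.03 with sh1319 in MIA PaCa-2, with 10.74 and 10.60, 10.28 and 10.45, and 10.06 and 10.18 in Capan-1. The sh1319 arrays of MIA PaCa-2 stood apart from all 10 others. The change there was -2.37 ± 0.11 (SE, limma, adjusted p = 7.2e-08), to 0.194 times the shCtrl level, and -0.55 in Capan-1. RRM2, the S phase subunit of ribonucleotide reductase, fell with sh1319 by 1.13 in MIA PaCa-2, against 0.62 in Capan-1, while the constant subunit RRM1 changed by -0.31 and -0.37, neither past the threshold. DUT, which removes dUTP, fell in the 3 pairs other than sh1319 in MIA PaCa-2, by 0.46 with sh1209 in MIA PaCa-2 and by 0.67 and 0.74 in Capan-1. With median scaling 2 of the 6 nucleotide supply and uracil removal genes were lower with sh1319 in MIA PaCa-2 and 0 in the other 3 pairs. The falls of DUT and the Capan-1 falls of TYMS and RRM2 then did not pass. TK1 stayed within -0.27 to 0.03 in the 4 pairs.

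Among the chromatin and fork stability genes, UHRF1, which brings the maintenance methyltransferase to new DNA, split by hairpin in MIA PaCa-2. It read 8.56 and 8.47 with shCtrl, 9.30 and 9.34 with sh1209 and 7.16 and 7.35 with sh1319, a rise of 0.80 (limma, adjusted p = 0.0013) and a fall of 1.26 (limma, adjusted p = 3e-05), each ± 0.13 (SE). In Capan-1 it lay between 8.30 and 8.76 on all 6 arrays. TIPIN, of the fork protection complex, fell in MIA PaCa-2 by 0.64 and 0.49.

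CCNE2, cyclin E2, a partner of CDK2 in S phase entry, fell in each pair and most with sh1209 in MIA PaCa-2. It read 8.40 and 8.32 with shCtrl, 6.91 and 6.73 with sh1209 and 7.06 and 7.20 with sh1319 in MIA PaCa-2, with 8.14 and 7.93, 7.16 and 7.33, and 7.20 and 7.59 in Capan-1. All 8 FAK hairpin arrays lay below all 4 shCtrl arrays. The changes were -1.54 (limma, adjusted p = 3.2e-05), -1.23, -0.79 (limma, adjusted p = 0.0042) and -0.64, each ± 0.15 (SE), and with median scaling the 2 in Capan-1 did not pass. E2F2, an activator of the E2F family, fell by 0.68 (limma, adjusted p = 0.0015) and 0.35 in MIA PaCa-2 and by 0.41 with sh1209 in Capan-1. E2F1 changed by -0.20 to -0.02, none past the threshold, and E2F8 was detected in 3 of 12 arrays.

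**Figure D3:**
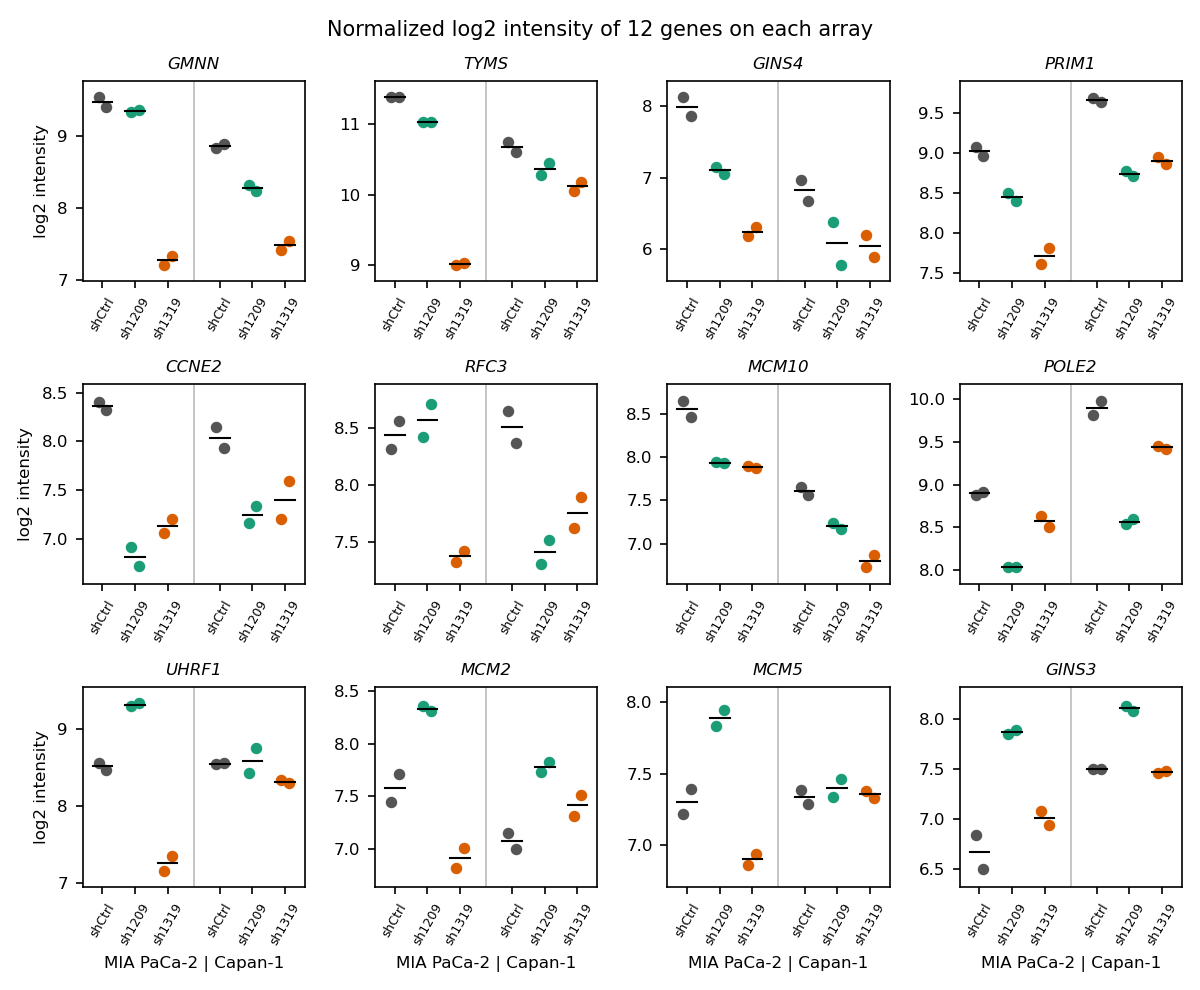
Normalized log2 intensity (vertical axis) of 12 genes on each of the 12 arrays, by group (horizontal axis, MIA PaCa-2 left of the line and Capan-1 right), with a point for each array and a bar at the mean of 2, on a scale of its own for each gene. The FAK hairpin arrays of GINS4, PRIM1, CCNE2 and MCM10 lie below the shCtrl arrays in both cell lines, GMNN and TYMS are lowest with sh1319, and GINS3, UHRF1, MCM2 and MCM5 are highest with sh1209 in MIA PaCa-2.

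There were 13 genes that passed in none of the 4 pairs. These were CDC6, GINS1, RFC1, RFC4, POLD2, POLD3, RPA2, RNASEH2A, RRM1, TK1, CHAF1B, E2F1 and E2F8. Their changes ranged from -0.49 to 0.29, and the 95% confidence intervals from -0.85 to 0.69, so the data do not bound every one of them near 0. Where a gene had several tested probes (16 genes), calls of its probes were unequal in 40 of 144 combinations of gene and comparison and opposite in 0.

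In the combined comparison, the mean of the 4 pairs, 32 member probes were lower with the FAK hairpins and 2 were higher (limma), where 12.7% of all tested probes were lower and 12.5% higher, 25.2% in all. The median was -0.25 against 0.00 over all probes. By gene 24 fell and MCM2 (0.29) and GINS3 (0.53) rose. The deepest falls were in GMNN (-1.08, limma, adjusted p = 1.3e-06), CCNE2 (-1.05, limma, adjusted p = 1.2e-05), GINS4 (-1.04, limma, adjusted p = 8.4e-05), PRIM1 (-0.90, limma, adjusted p = 6.1e-06) and TYMS (-0.89, limma, adjusted p = 4.9e-06), and each had the same sign in all 4 pairs. With median scaling 14 of the 32 probes remained lower, these 5 genes among them, where 3.86% of all probes were lower.

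Other replication genes, a list of 54 further components of which 52 were tested, also fell more often than they rose. With sh1319 in MIA PaCa-2 17 fell and 2 rose, with sh1209 in MIA PaCa-2 12 and 2, with sh1209 in Capan-1 9 and 1, and with sh1319 in Capan-1 8 and 0. In that order the falls were 32.7%, 23.1%, 17.3% and 15.4% of the 52, where 12.1%, 8.99%, 8.69% and 6.77% of all tested probes were lower. RAD51AP1, a cofactor of recombination, fell with sh1319 by 1.36 in MIA PaCa-2, against 1.05 in Capan-1. CDC45, which completes the active helicase with MCM2 to MCM7 and GINS, fell by 0.82 and 1.18 in MIA PaCa-2 and by 0.45 with sh1319 in Capan-1. CCNE1, the other E-type cyclin, fell by 1.15 with sh1209 in MIA PaCa-2. Of 24 mitosis genes on the array, 2, 5, 4 and 8 fell, and 1, 0, 0 and 0 rose, in the pairs sh1209 and sh1319 in MIA PaCa-2 and sh1209 and sh1319 in Capan-1, with median changes by gene of 0.04, -0.11, -0.16 and -0.36, beside -0.10, -0.51, -0.16 and -0.25 for the members. These falls are 8.33%, 20.8%, 16.7% and 33.3% of the 24 genes, where 8.99%, 12.1%, 8.69% and 6.77% of all tested probes were lower. AURKA, a spindle kinase, fell with sh1319 in both cell lines (by 0.99 in MIA PaCa-2, against 0.87 in Capan-1), and MKI67, the gene of the Ki-67 antigen, by 0.62 with sh1319 in MIA PaCa-2. Of 8 tested cell cycle inhibitor genes, from a list of 9, 2, 0, 1 and 1 fell and 1, 0, 2 and 0 rose in the same order of pairs. Beside the shares of all tested probes lower given above, 9.05%, 12.2%, 8.14% and 6.95% were higher. Among these inhibitors CDKN1A, the p21 inhibitor of cyclin-dependent kinases, fell by 0.77 with sh1209 in MIA PaCa-2 and rose by 0.72 with the same hairpin in Capan-1. The CDKN2A probes were detected in at most 1 of 12 arrays. The part of these genes in the members' changes was not tested.

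The 2 hairpins were then compared with each other. In MIA PaCa-2, 30 of the 70 member probes differed, where 22.6% of all tested probes did, 27 lower and 3 higher with sh1319 than with sh1209. The differences, sh1319 minus sh1209, were largest in GMNN (-2.08 ± 0.11, limma, adjusted p = 2.9e-07), UHRF1 (-2.07 ± 0.13, limma, adjusted p = 7.5e-07), TYMS (-2.02 ± 0.11, limma, adjusted p = 3.5e-07), MCM2 (-1.42 ± 0.14, limma, adjusted p = 1.8e-05) and POLD1. For POLD1, which was not detected with sh1319, the level with sh1209 was at least 1.98-fold higher (limma, adjusted p = 5.2e-05). These 5 genes have the values given above, and none of their sh1209 and sh1319 arrays overlapped. PTK2 had group means of 7.21 with sh1209 and 6.97 with sh1319 in this cell line. The probes higher with sh1319 belonged to POLE2 (0.53), RPA3 (0.39) and DUT (0.68, at 1 of its 3 probes).

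In Capan-1, 11 member probes differed between the hairpins, 8 lower and 3 higher, where 11.3% of all tested probes did, 5.81% lower and 5.47% higher. POLE2 was higher with sh1319 by 0.87 ± 0.11 (limma, adjusted p = 0.00049), and GMNN (-0.80, limma, adjusted p = 0.001), GINS3 (-0.64, limma, adjusted p = 0.0075), RPA1 (-0.59, limma, adjusted p = 0.0084) and POLA2 (-0.44, limma, adjusted p = 0.027) were lower. With median scaling only POLE2 and GMNN of these 5 passed, and the count fell to 4. It was 4 as well without sh1209 replicate 1, sh1209 replicate 2 or sh1319 replicate 1 of Capan-1, and leaving out any 1 of the 4 FAK hairpin arrays of Capan-1 ended the call of POLA2 (-0.51 to -0.38). The call of RPA1 ended without sh1319 replicate 1 (-0.56) or sh1209 replicate 2 (-0.47), and that of GINS3 without sh1209 replicate 1 (-0.61). The hairpins left PTK2 at 9.65 and 8.48 in this cell line, and the part of that difference in these values was not tested.

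The response differed between the cell lines for few members when both hairpins were averaged. The interaction passed for 6 of 70 probes, all with a lower value in MIA PaCa-2, where 14.4% of all tested probes passed and 7.11% in that direction. They belonged to TYMS (-0.93 ± 0.14, limma, adjusted p = 0.0011), CCNE2 (-0.67, limma, adjusted p = 0.033), MCM3 (-0.61, limma, adjusted p = 0.011), RFC2 (-0.60, limma, adjusted p = 0.029), MCM7 (-0.50, limma, adjusted p = 0.037) and 1 of 2 probes of RPA1 (-0.60). Leaving out shCtrl replicate 1 or 2 of Capan-1 left 2 such probes, and shCtrl replicate 1 or sh1319 replicate 1 of MIA PaCa-2 left 3. RFC2, a clamp loader subunit, read 8.19 and 8.02, 7.75 and 7.81, and 7.50 and 7.43 in MIA PaCa-2, with 6.66 and 6.79, 7.13 and 7.00, and 6.48 and 6.79 in Capan-1, so the groups were ordered differently in the 2 lines. MCM3 read 10.20 and 10.23, 10.04 and 9.86, and 9.25 and 9.27 in MIA PaCa-2, and stayed between 11.04 and 11.14 in Capan-1.

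Considered 1 hairpin at a time, a comparison added after the data were examined, more member probes passed, in opposite directions for the hairpins. With sh1319, 15 probes passed, where 14.0% of all did, and all 15 had the lower change in MIA PaCa-2. The difference was -1.82 ± 0.16 for TYMS (limma, adjusted p = 2.5e-05), where with sh1209 it was -0.04 (limma, adjusted p = 0.9). It was -1.02 for UHRF1, -1.01 for MCM2, -0.97 for GINS4, -0.97 for MCM3 and -0.82 for GMNN. With sh1209, 9 probes passed, where 14.8% of all did, 7 of them with the higher change in MIA PaCa-2. RFC3 had the largest difference (1.23 ± 0.23, limma, adjusted p = 0.0036, and 1.38 at its second probe), followed by CDT1 (0.88), PRIM2 (0.82), GINS2 (0.81), UHRF1 (0.76) and GINS3 (0.60). RFC2 (-0.66) and CCNE2 (-0.75) had the lower change in MIA PaCa-2. With sh1209 MCM3 (-0.25) and MCM7 (-0.30) did not pass, nor with sh1319 did CCNE2 (-0.59) and RFC2 (-0.54). The share of members that passed with sh1209 was close to that of all probes. UHRF1 is on both lists with opposite signs, and its own changes in Capan-1 were 0.04 and -0.24.

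**Figure D4:**
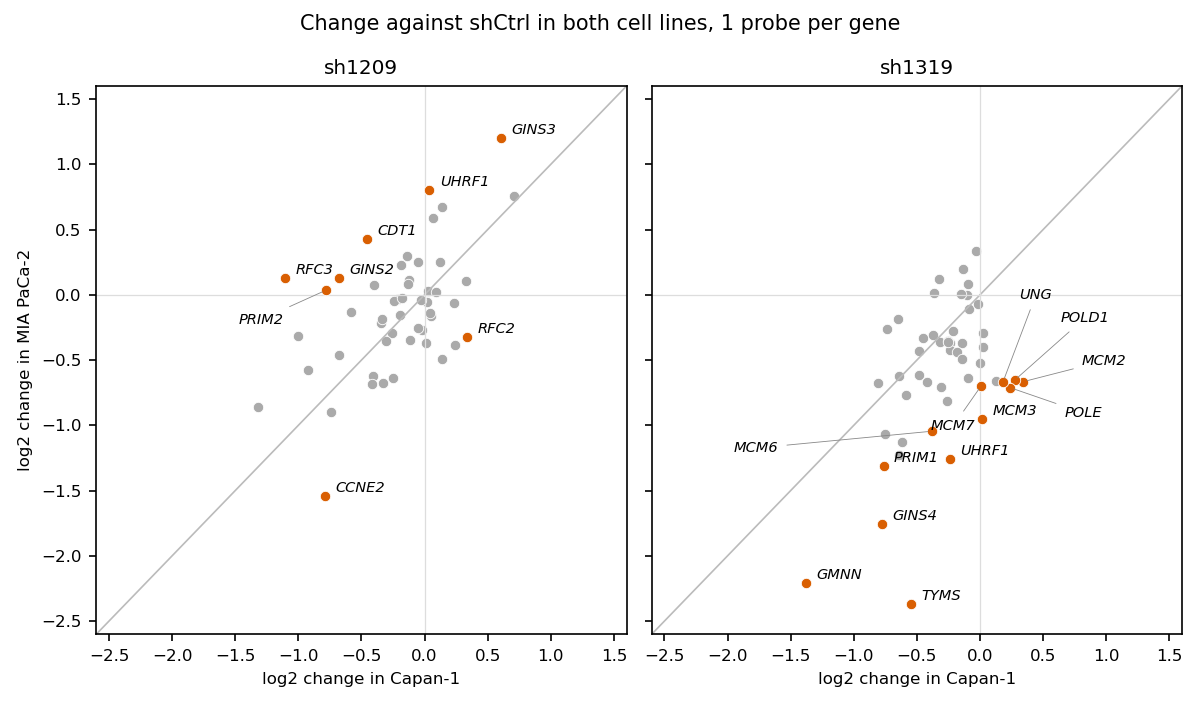
Change from the shCtrl level (log2) for Capan-1 (horizontal axis) and MIA PaCa-2 (vertical axis) of the 50 tested genes, by their brightest probe, with sh1209 on the left, sh1319 on the right and the line of equal change in grey. Named orange points are genes whose change differed between the cell lines (limma interaction for that hairpin, adjusted p under 0.05), which lie below the line for all 12 named genes with sh1319 and above it for 6 of 8 with sh1209.

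With shCtrl, the cell lines themselves differed at 37 of 70 member probes, where 42.1% of all tested probes differed. Of these 17 were lower in MIA PaCa-2, where 19.6% of all were, and 20 were higher, where 22.5% were. DUT differed by -1.44 ± 0.13 (limma, adjusted p = 2.6e-06), at 7.55 and 7.47 against 8.98 and 8.93. RFC2 (1.37, limma, adjusted p = 4.4e-06), POLA1 (1.28, limma, adjusted p = 7.6e-05), GINS4 (1.17, limma, adjusted p = 0.00041) and RPA1 (1.12, limma, adjusted p = 1.1e-05) were higher. The share of members that differed was close to that of all probes, and the median difference was -0.04 against 0.04 over all probes.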

How the data were processed

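RNA of 12 samples, grouped by their labels, was hybridised to Illumina HumanHT-12 v4 arrays. The authors deposited a linear intensity for every probe, neither background-subtracted nor normalized, together with a detection p-value, and the submitters' processing notes name GenomeStudio 2011.1. Of 47320 rows, 92 spike-in probes were dropped once the background had been corrected (limma's nec, offset 16, which understates changes of dim probes). Values were then quantile-normalized on the log2 scale. Of 47228 probes, 24207 were detected at p under 0.05 in at least 2 arrays and tested. All 6 groups entered 1 limma model (limma 3.58.1, R 4.3.3; 6 residual degrees of freedom), with Benjamini-Hochberg adjustment over all tested probes within each comparison. The script was tested on simulated data. The number of arrays, 2 per group, limits the precision. The members and all lists were chosen with earlier results of these data known.

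Probes carry the names of the deposited table, older names were matched through RefSeq, and CDK1 of the mitosis list was not matched. Each gene was represented by its tested probe of highest mean level. Values on every array were to be given for PTK2 and, among member genes past the threshold, for the 5 largest falls and 3 largest rises of each hairpin and cell line pair, the same of the combined comparison where all 4 pairs shared a sign, and the 5 largest differences of the other comparisons. Further members are given by their role. A fold bound divides the brighter mean by the faintest detected signal of each array. Alternatives were median scaling, uncorrected background, an absent or stricter filter, the replicate block, every array left out in turn, models of a single cell line, weighted arrays, the methods' t-test and a minimum log2 change of 0.5. Counting 1 probe per gene and testing the interaction of each hairpin alone were added after the data were examined.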

Additional observations from a re-analysis of the deposited data

Results flagged for a closer look

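For 6 probes of replication genes the knockdown response, averaged over both hairpins, differed between MIA PaCa-2 and Capan-1 by a test of the difference itself (limma interaction, adjusted p under 0.05). These are 8.57% of the 70 member probes, where 14.4% of all tested probes differed. The difference, MIA PaCa-2 minus Capan-1 on the log2 scale, was -0.93 for TYMS, -0.67 for CCNE2, -0.61 for MCM3, -0.60 for RFC2, -0.60 for probe 3120671 of RPA1 and -0.50 for MCM7. By hairpin, the difference for TYMS was -0.04 (limma, adjusted p = 0.9) with sh1209, for MCM3 -0.25, for MCM7 -0.30 and for the RPA1 probe -0.19, none past the threshold, and CCNE2 (-0.59) and RFC2 (-0.54) did not pass with sh1319. With median scaling MCM3 (-0.70), RFC2 (-0.80) and MCM7 (-0.61) no longer passed, and CCNE2, RFC2 and MCM7 also failed without any 1 of several arrays.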

How the results depend on the processing

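None of the 50 named values changed sign under the alternatives run for it, but medians did. With median scaling that of the member probes with sh1209 in Capan-1 turned from -0.16 to 0.06, and of 8 role medians by gene 1 turned above 0 with sh1209 in MIA PaCa-2, 4 with sh1209 in Capan-1 and 2 with sh1319 in Capan-1. The median response difference was -0.06, against 0.05 with sh1209 alone. Of these 50 named values, median scaling kept 38 past the threshold and lost 12, and it gave 7 and 20 lower member probes with sh1209 and sh1319 in MIA PaCa-2, against 5 and 2 in Capan-1, 14 in the combined comparison, 2 for the response difference between cell lines and 4 for the hairpin difference in Capan-1. The cause was not tested. Without background correction the response difference counted 21 probes and the hairpin difference in Capan-1 counted 18. With probes detected in all 12 arrays the response difference counted 15, as did sh1319 alone. A model of Capan-1 only gave 7 for its hairpin difference. A minimum log2 change of 0.5 gave 14 in the combined comparison and 5 for the hairpin difference in Capan-1, by construction. The methods' t-test after Benjamini-Hochberg gave 0 in each of the 4 pairs and both hairpin comparisons and 13 between the cell lines with shCtrl, and at an unadjusted p under 0.05 it gave 15, 37, 20 and 19 in the pairs, 39 and 13 between hairpins and 34 between cell lines. Leaving out 1 array gave 8 to 12 and 28 to 43 lower probes with sh1209 and sh1319 in MIA PaCa-2, against 11 to 18 and 8 to 19 in Capan-1, 27 to 32 in the combined comparison, 2 to 8 for the response difference, 26 to 32 and 4 to 9 for the hairpin differences and 31 to 38 between cell lines. Of the named values so recomputed, 562 kept and 38 lost their call. With the replicate block the pairs gave 11, 40, 18 and 19 and no named call changed. After normalization, arrays with the same number did not deviate together across probes (correlations -0.06 to 0.16, 1 of 15 group pairs above 0.1). Before it, median intensity was higher on replicate 2 than on replicate 1 in every group. The correlations cannot show such a shared shift, so whether the numbers pair the arrays is not settled. Signal over background limits dim probes, such as those of POLD1 and GINS1, to bounds or to no value.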
